A study of Homo sapiens with 10 samples.

Results

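CNNM1, NKX2-5, FOXQ1, SYK and HSPB1 are 5 genes that were read at substantial levels in the Group 3 medulloblastoma cell line HD-MB03, derived from a malignant childhood tumour of the cerebellum, and at or near 0 in the Group 3 line D425. They were picked for that difference, from their levels in HD-MB03 and in the D425 controls, out of 57820 gene identifiers counted and 16006 tested. The rule does not state whether the HD-MB03 libraries with the CRX hairpin entered the choice. The identifiers were ENSG00000119946.9 for CNNM1, ENSG00000183072.9 for NKX2-5, ENSG00000164379.4 for FOXQ1, ENSG00000165025.10 for SYK and ENSG00000106211.8 for HSPB1. All 5 passed the filter on low counts, which for CNNM1, NKX2-5, FOXQ1 and SYK could only come from the HD-MB03 libraries.

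The study targeted CRX, a homeobox factor known from photoreceptor development, by inducible RNA interference and measured poly(A)-selected RNA by sequencing. HD-MB03 was represented by 2 libraries labelled shCRX, 1 empty-vector library and 1 parental library, and D425 by 3 libraries labelled shCRX, 1 empty-vector library and 2 parental libraries. The shCRX cells were stable polyclonal populations carrying a Tet-pLKO-puro lentiviral vector with a hairpin against CRX, the vector cells carried the empty vector, and the parental cells carried none. A pair of hairpins was used, without a statement of which library carries which, and the same doxycycline protocol of 4 µg/ml over 72 h is given for every library, parental cells included. In each line the parental and vector libraries together formed the controls. Separate cultures are not stated for libraries within a group. The p-values therefore set a difference only against the spread of these libraries within their groups, which may be technical. In the controls this spread also holds any difference between parental and vector cells.

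The libraries also differed in ways other than line and arm, and several of these differences ran along with the groups. Counted reads ranged over 1.96 to 18.06 M per library, and the 2 HD-MB03 controls were both the shallowest, at 2.08 and 1.96 M, and the ones with most unaligned reads, at 30.9% and 26.4% against 4.54% to 7.99% in the other 8. Library numbers ran from 20 to 62 in the HD-MB03 controls and D425 shCRX libraries and from 110 to 136 in the HD-MB03 shCRX libraries and D425 controls. Each arm of a line fell in 1 number set, so within a line the number set and the arm cannot be told apart. CRX itself averaged 22.2 ± 2.74 CPM (counts per M reads of effective library size) in D425 shCRX libraries and 47.4 ± 17.6 CPM in D425 controls (SD, n = 3 each). It averaged 25.6 ± 3.00 CPM in HD-MB03 shCRX libraries and 12.4 ± 0.113 CPM in HD-MB03 controls (SD, n = 2 each), which goes against the label, so directions given for HD-MB03 follow the label and not a measured loss of CRX. The library labelled HD-MB03 shCRX replicate 2 also stood apart: 15 tested genes, led by LCP1, HOXB9 and GATA2, had at least 5 CPM in it and under 0.5 CPM in every other HD-MB03 library, against at most 1 such gene in each of the other 9 libraries within their own line. Epithelial markers summed to 30.8 CPM there, mostly KRT8 at 22.1 CPM, and to between 0.143 and 1.61 CPM in the other 3 HD-MB03 libraries. Their part in the results below was not tested, and values without that library are given where they bear on the members.

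The 5 genes belong to unrelated families. NKX2-5 is a homeodomain transcription factor of early heart development, and FOXQ1 is a forkhead transcription factor studied in epithelial and hair follicle cells. SYK is a cytoplasmic tyrosine kinase that passes signals on from immune receptors in blood cells, CNNM1 is a membrane protein of the CNNM family linked to magnesium transport, and HSPB1 is the small heat shock protein Hsp27, a chaperone whose transcription is raised by heat shock factor and whose phosphorylation follows p38 and MAPKAP kinase activity.

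The sequences before the annotated start sites are shown so that genes which share this on-off pattern can be compared letter by letter. RefSeq promoter sequences of build GRCh38.p14, plus strand, were found for 4 of the 5 genes. The 250 bases before the start are given for HSPB1, FOXQ1 and CNNM1, at chr7:76302423-76302672, chr6:1311848-1312097 and chr10:99329106-99329355, and capitals mark a match to the paired heat shock unit GAANNTTC.
HSPB1: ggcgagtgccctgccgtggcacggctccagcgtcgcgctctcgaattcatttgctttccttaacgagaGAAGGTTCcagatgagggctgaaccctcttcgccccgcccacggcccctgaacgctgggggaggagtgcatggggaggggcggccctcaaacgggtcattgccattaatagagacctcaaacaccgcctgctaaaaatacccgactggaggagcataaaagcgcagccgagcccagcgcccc
FOXQ1: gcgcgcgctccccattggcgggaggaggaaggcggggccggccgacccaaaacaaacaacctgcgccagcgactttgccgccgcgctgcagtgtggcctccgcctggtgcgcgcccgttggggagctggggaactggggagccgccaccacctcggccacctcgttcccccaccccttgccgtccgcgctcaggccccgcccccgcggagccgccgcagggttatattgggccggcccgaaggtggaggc
CNNM1: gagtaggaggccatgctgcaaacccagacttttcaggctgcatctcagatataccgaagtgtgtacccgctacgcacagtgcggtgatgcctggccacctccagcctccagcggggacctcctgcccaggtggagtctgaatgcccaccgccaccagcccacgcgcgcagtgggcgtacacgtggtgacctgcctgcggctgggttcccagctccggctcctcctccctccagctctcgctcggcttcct
The HSPB1 window held 1 match to GAANNTTC on either strand, a motif found in 5.78% of all 35116 promoter windows of this length. The FOXQ1 window held 2 matches to CCAAT, a motif found in 32.0% of windows. TAATCC, the core recognised by CRX, was in none of the windows of these 4 genes and in 5.62% of all windows, and TATAAA was in none of them and in 10.7% of all windows. FOXQ1 had 29 CpG pairs in its window, HSPB1 had 19 and CNNM1 had 15, against a median of 11 over all windows, and the SYK windows of its 3 annotated starts had 32, 13 and 2. Letters found or missing in such a window say nothing of whether a factor binds there.

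NKX2-5 was read in every HD-MB03 library and in no D425 library. It had 15 and 22.6 CPM in HD-MB03 shCRX libraries and 45.8 and 37.5 CPM in the HD-MB03 parental and vector libraries. In D425 it had 0 counts in all 3 shCRX libraries and in all 3 controls, and 3 counts over a group would correspond to 0.153 CPM in the shCRX group and 0.0727 CPM in the controls. Both lines are labelled as the same medulloblastoma subgroup. NKX2-5 was chosen for its difference between them, so its separation of the lines is no separate finding.

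FOXQ1 was the lowest of the 5 genes. It had 4.86 and 6.80 CPM in HD-MB03 shCRX libraries and 16.1 and 18.2 CPM in the HD-MB03 parental and vector libraries, from 31 and 34 counts in these shallow controls. A single count was read in D425, in shCRX replicate 3, and the other 5 D425 libraries had 0. The HD-MB03 arms did not overlap.

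SYK had 166.7 and 156.8 CPM in HD-MB03 shCRX libraries and 226.9 and 167.8 CPM in the HD-MB03 parental and vector libraries. D425 shCRX libraries had 0 counts, and the D425 controls had 1 and 4 counts in parental replicates 1 and 2 and 0 in the vector library. The HD-MB03 vector library lay barely above the higher shCRX library, so the arms separated by little.

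CNNM1 had 59.2 and 51.6 CPM in HD-MB03 shCRX libraries and 82.2 and 94.4 CPM in the HD-MB03 parental and vector libraries. It had 0 counts in all 6 D425 libraries. With NKX2-5 it was 1 of 6 protein-coding genes of this pattern that had no count in any D425 library, as described below.

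HSPB1 was the highest of the 5 and the least even. It had 381.1 and 339.7 CPM in HD-MB03 shCRX libraries and 1130 and 539.4 CPM in the HD-MB03 parental and vector libraries, so the controls differed from each other more than the shCRX replicates did. In D425 it had 1, 0 and 3 counts in shCRX replicates 1 to 3, and 19, 21 and 5 counts in parental replicates 1 and 2 and the vector library. HSPB1 was the only member with a count in more than 2 D425 libraries.

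**Figure D1:**
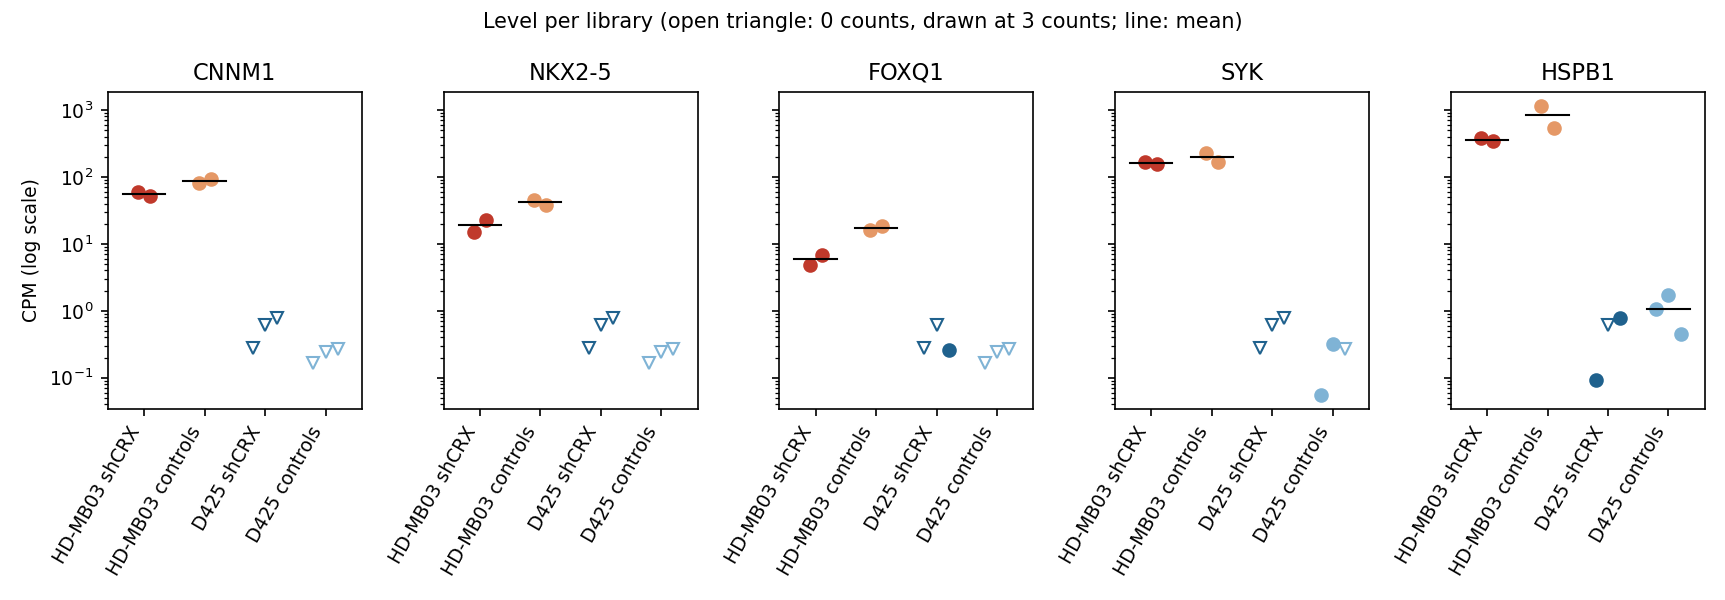
Level of each member gene in each of the 10 libraries, in CPM on a log axis, by line and arm, with filled points for libraries, lines for group means and open triangles at the level of 3 counts for libraries with 0 counts. All HD-MB03 points lie between 4.86 and 1130 CPM, and no D425 library had more than 1.69 CPM.

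On a scale that allows genes to be compared, CPM per kilobase of exon, the order in HD-MB03 controls was HSPB1 at 511 ± 256, SYK at 37.9 ± 8.02, NKX2-5 at 19.9 ± 2.79, CNNM1 at 13.8 ± 1.34 and FOXQ1 at 7.44 ± 0.641 (SD, n = 2). No neighbours in this order overlapped between the control libraries. In HD-MB03 shCRX libraries the levels were 221 ± 17.9 for HSPB1, 31.0 ± 1.34 for SYK, 8.99 ± 2.57 for NKX2-5, 8.65 ± 0.840 for CNNM1 and 2.53 ± 0.595 for FOXQ1 (SD, n = 2). NKX2-5 and CNNM1 differed there by less than the spread between replicates, and the other neighbours in the order did not overlap.

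The controls are the contrast by which the members were chosen, so their size is given without a test. Over the counts of all libraries of a group, CNNM1 was at least 1213-fold higher in HD-MB03 controls than in D425 controls, NKX2-5 at least 574-fold and FOXQ1 at least 236-fold, each against a floor of 3 counts over the D425 group. SYK was 1632-fold higher (counting interval 696 to 5042) and HSPB1 769-fold higher (counting interval 574 to 1057). These intervals cover counting error only.

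The shCRX libraries had the same direction of difference between the lines, and since the rule names HD-MB03 as a whole, it is also given without a test. CNNM1 was at least 362-fold higher in HD-MB03 shCRX than in D425 shCRX libraries, NKX2-5 at least 123-fold and SYK at least 1056-fold, against 3 counts over the D425 group. FOXQ1 was 114-fold higher with an interval of 20.2 to 4537, since its only D425 count was in this arm, and HSPB1 was 1764-fold higher with an interval of 689 to 6476. Because these are the same cell lines as in the controls, and the HD-MB03 shCRX libraries may have entered the choice, this is no independent evidence for the pattern.

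The lines were also compared between libraries of the same number set. Among the lower library numbers, HD-MB03 controls were at least 576-fold above D425 shCRX libraries for CNNM1, at least 272-fold for NKX2-5 and at least 1291-fold for SYK, 336-fold for FOXQ1 (counting interval 58.2 to 13478) and 4107-fold for HSPB1 (1603 to 15084). Among the higher library numbers, HD-MB03 shCRX libraries were at least 762-fold above D425 controls for CNNM1, at least 259-fold for NKX2-5 and at least 80.2-fold for FOXQ1, 1334-fold for SYK (counting interval 571 to 4112) and 330-fold for HSPB1 (247 to 453). The direction was the same in both sets for all 5 genes. Each set reuses HD-MB03 or D425 control libraries that the choice drew on, so this is no independent check on the number sets.

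**Figure D2:**
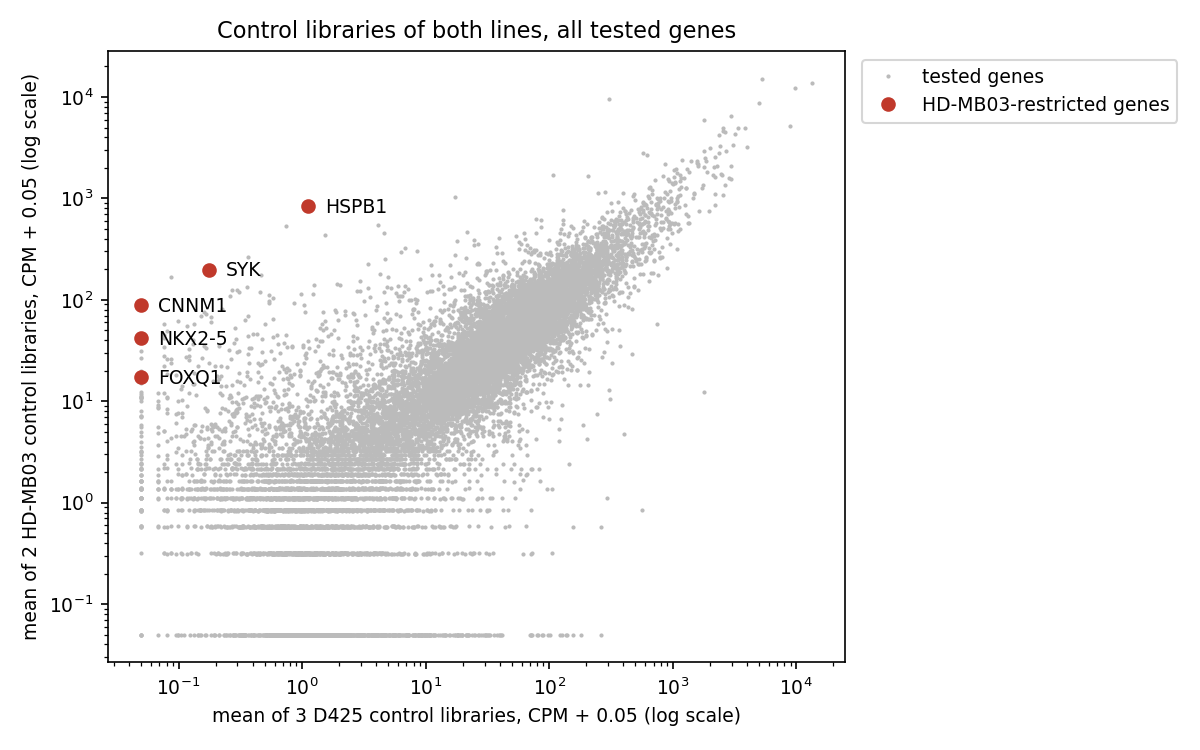
Mean CPM of the 16006 tested genes in HD-MB03 controls (vertical, n = 2) against D425 controls (horizontal, n = 3), both on log axes with 0.05 added, with each point a gene and the 5 members in red. CNNM1, NKX2-5 and FOXQ1 lie at the left edge, where D425 controls had 0 counts, and HSPB1 lies highest of the 5.

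The members were not alone in this corner. With limits chosen after the values were seen, 152 protein-coding genes had at least 10 CPM in both HD-MB03 controls and under 2 CPM in every D425 control, and 99 had the reverse pattern. Of the 152, 120 also stayed under 2 CPM in every D425 shCRX library, 9 had 0 counts in all D425 controls and 6 had 0 counts in all D425 libraries. By mean CPM in HD-MB03 controls HSPB1 ranked 1, SYK 4, CNNM1 19, NKX2-5 43 and FOXQ1 118 among them.

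Under the shCRX label in HD-MB03, none of the 5 genes passed the test, and all 5 fitted values were negative. By edgeR's quasi-likelihood test FOXQ1 had a log2 fold change of -1.56 ± 0.56 (SE, 95% interval -2.80 to -0.32, adjusted p = 0.196) and HSPB1 one of -1.21 ± 0.42 (interval -2.12 to -0.30, adjusted p = 0.174). It was -1.15 ± 0.38 for NKX2-5 (interval -2.0 to -0.29, edgeR adjusted p = 0.180) and -0.67 ± 0.27 for CNNM1 (interval -1.28 to -0.07, edgeR adjusted p = 0.247). SYK, at -0.29 ± 0.32, had an interval that spans 0 (-0.98 to 0.41, edgeR adjusted p = 0.681). The count of members passing was therefore 0 of 5, against a background of 1.24% of tested genes called lower. At an unadjusted edgeR p under 0.05, 4 of 5 were lower, against 8.18% of tested genes. The members were picked for high levels in HD-MB03, whose controls are the reference here. Low p-values in this direction may therefore be favoured by the choice, and the 4 of 5 is no evidence of an effect on the members. HSPB1 was the only member called by DESeq2 (log2 fold change -1.29, adjusted p = 0.0435), and also the only one called by edgeR without the low-count filter (-1.14, adjusted p = 0.0026).

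For all 5 genes every HD-MB03 shCRX library lay below every HD-MB03 control, a separation that 21.8% of the 16006 tested genes showed in the same direction. The median over the members was -1.15 on the log2 scale against 0.10 over all tested genes, of which 42.9% had a negative value. Among the other 147 genes of the same high-and-low pattern the median was -0.37, 72.8% had a negative value and 48.3% had the arms separated in this direction. Genes chosen for high values in the HD-MB03 controls share those control libraries with this comparison, so a lower value in the other arm is not independent of the choice.

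Several measures moved with these values. Without HD-MB03 parental the log2 fold change was -0.56 for HSPB1 and -0.04 for SYK, and the other 3 genes stayed between -1.63 and -0.75. Without the HD-MB03 shCRX replicate 2 described above it was -1.81 for FOXQ1, -1.46 for NKX2-5, -1.12 for HSPB1, -0.57 for CNNM1 and -0.24 for SYK. Across tested genes the HD-MB03 log2 fold change was lower at higher GC content (Spearman rho -0.357 across genes, which are not independent replicates), and in D425 the relation had the opposite sign, at 0.277. The transcripts of NKX2-5, HSPB1, FOXQ1, CNNM1 and SYK have 66.2%, 64.3%, 62.2%, 55.2% and 50.5% GC, against a median of 48.2% over tested genes. With offsets for GC content and length, which were added after seeing the data, the values were -1.28 for FOXQ1, -0.68 for HSPB1, -0.64 for NKX2-5, -0.57 for CNNM1 and -0.29 for SYK.

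**Figure D3:**
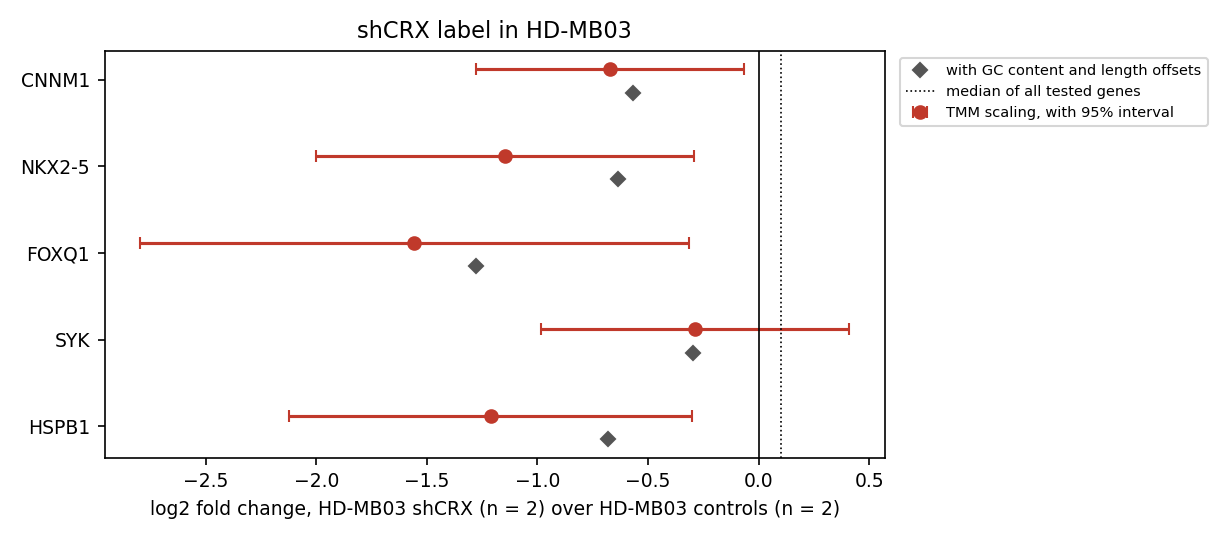
Log2 fold change of each member in HD-MB03 shCRX libraries against HD-MB03 controls, with circles and bars for the value and 95% interval of the edgeR fit, diamonds for the values with GC content and length offsets and a dotted line for the median of all tested genes (0.10). All 5 circles lie below 0, from -1.56 for FOXQ1 to -0.29 for SYK, and the SYK interval reaches 0.41.

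In D425 the label could be examined for HSPB1 only. HSPB1 averaged 0.287 ± 0.419 CPM in D425 shCRX libraries and 1.07 ± 0.620 CPM in D425 controls (SD, n = 3 each), with 4 counts against 45 in all, a ratio of 0.187 (counting interval 0.0489 to 0.514). The arms overlapped, since shCRX replicate 3 lay above the vector library. Its fitted log2 value of -2.31 ± 0.89 (SE, 95% interval -4.24 to -0.37) missed the threshold (edgeR adjusted p = 0.198), against 1.37% of tested genes called lower, while edgeR without the low-count filter called it (-2.37, adjusted p = 0.0018). The HSPB1 values in HD-MB03 and D425 had a difference of 1.09 ± 1.02 (log2, edgeR adjusted p = 0.585), a test that 4.16% of tested genes passed. HSPB1 had no more than 3 counts in any D425 shCRX library, and its low D425 controls were part of the choice. These D425 values are therefore no independent support for a change under the label. CNNM1, NKX2-5 and FOXQ1 were at or under 3 counts in both D425 groups, and SYK had 0 counts in D425 shCRX libraries and 5 in D425 controls, so no change was detectable for these 4 at this depth.

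The known partners of each member were compared between the lines by counting genes that passed edgeR's test in the same direction in both arms, which 8.99% of tested genes did as higher in HD-MB03 and 8.97% as lower. No gene in any of the lists described here passed the shCRX comparison in HD-MB03 (background 1.51% called in either direction). All pairs of log2 values below give HD-MB03 over D425, first in the shCRX libraries and then in the controls. Since the arms share no library but come from the same cells, they are not separate experiments.

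Of 13 tested cardiac transcription factors, 1 was higher and 2 were lower in HD-MB03 in both arms, so the count of higher genes was near the background. HAND2, a basic helix-loop-helix factor of the heart and limb, was higher by 4.07 and 3.76. GATA4, a zinc finger partner of NKX2-5, had 3.87 CPM in HD-MB03 shCRX replicate 2, which stands apart, and 0 counts in the other 3 HD-MB03 libraries, against 25.7 to 34.0 CPM in every D425 library. TBX20 had 0 counts in HD-MB03 and 1.64 to 2.69 CPM in D425. Both were called lower in both arms (edgeR adjusted p = 0.0048 and 0.0063 for GATA4, and 0.000188 and 0.0115 for TBX20).

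Among 12 cardiac targets and cardiomyocyte markers in the files, 6 had 0 counts in every HD-MB03 library: NPPA, NPPB, MYH6, MYH7, MYL2 and MYL7. In D425, NPPB also had 0 counts in every library, and NPPA, MYL2 and MYL7 had at most 0.767 CPM in any. MYH6 and MYH7 reached 4.60 and 1.29 CPM there. Of the 6 genes of this list that were tested, TNNT2 and ACTC1 were higher in HD-MB03 in both arms and SLC8A1, the sodium-calcium exchanger, was lower. TNNT2, cardiac troponin T, had 49.4 and 48.1 CPM in HD-MB03 shCRX libraries and 19.8 and 18.2 CPM in HD-MB03 controls, against 0.620 to 3.55 CPM in D425. ACTC1, cardiac alpha-actin, had 11.1 and 15.8 CPM in HD-MB03 shCRX libraries and 25.5 and 3.75 CPM in HD-MB03 controls, against 0.207 to 1.86 CPM in D425. Both are also genes of immature skeletal muscle, and MYOD1 and MYOG, which drive skeletal muscle differentiation, were higher in HD-MB03 in both arms (3.00 and 2.60 for MYOD1, and 3.91 and 3.40 for MYOG), as 2 of 7 tested skeletal muscle markers.

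**Figure D4:**
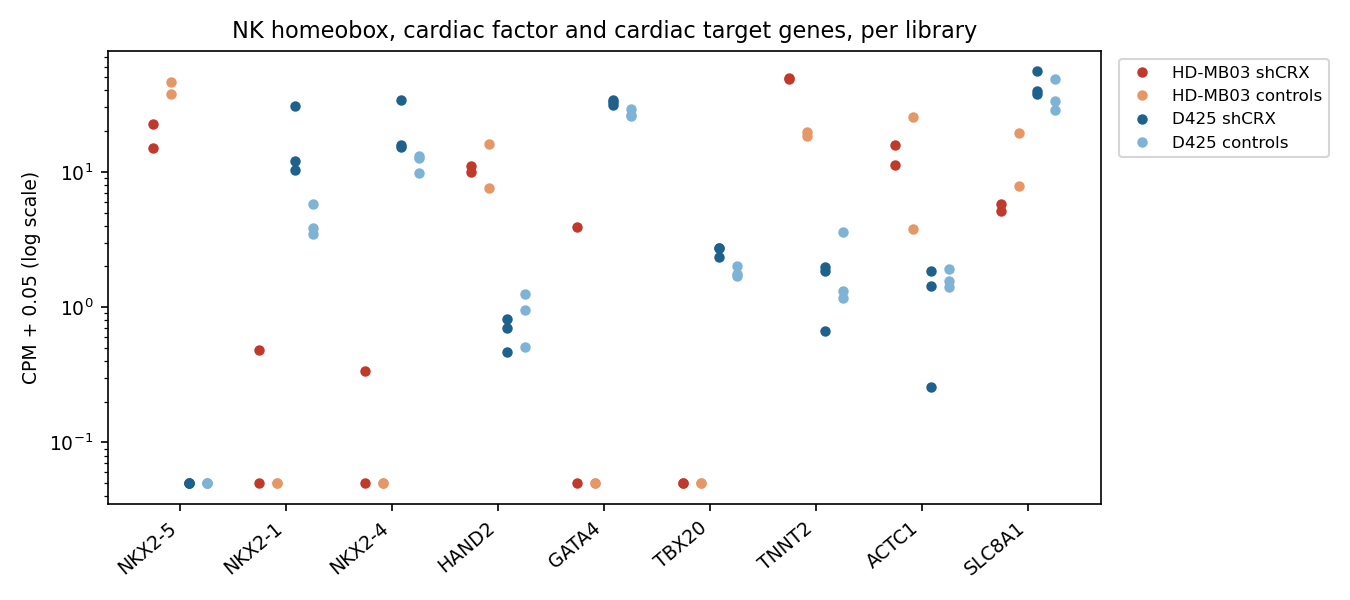
CPM of NK homeobox genes, cardiac factors and cardiac targets, each point a library, on a log axis with 0.05 added. NKX2-5, HAND2 and TNNT2 lie higher in HD-MB03 and GATA4 and TBX20 lie higher in D425.

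A pair of other NK homeobox genes ran the opposite way. NKX2-1, a factor of the forebrain, lung and thyroid, had 0.430 CPM in HD-MB03 shCRX replicate 2 and 0 counts in the other HD-MB03 libraries, against 3.42 to 30.8 CPM in D425. NKX2-4 had 0.286 CPM in that same HD-MB03 library and 0 counts in the others, against 9.82 to 33.9 CPM in D425. Both passed as lower in HD-MB03 in both arms, as 2 of 6 tested NK genes. NKX2-3, which lies near CNNM1, passed in neither arm.

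Of 20 tested forkhead genes, 2 were higher in HD-MB03 in both arms, FOXN4 by 3.04 and 3.21 and FOXN3 by 0.80 and 1.08. FOXO4, a forkhead factor regulated by insulin signalling, was lower, with -1.22 and -1.99. The share of forkhead genes called higher was near that over all tested genes.

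SYK was read without most of the receptors and adaptors it works with in blood cells. Of 16 such genes in the files only 6 were tested, none was higher in HD-MB03 in both arms, and PIK3AP1 and CBL, an adaptor and a ubiquitin ligase that restrains SYK signalling, were lower. TYROBP, CD79B, CLEC4E and LCP2 had 0 counts in every HD-MB03 library. This was not particular to HD-MB03: CLEC4E and LCP2 had 0 counts in every D425 library too. TYROBP and CD79B had at most 0.0909 and 0.461 CPM in any D425 library. FCGR2A, an Fc receptor, was the receptor with the clearest signal in HD-MB03 controls, at 5.20 and 10.7 CPM, and passed there but not in the shCRX libraries (edgeR adjusted p = 0.172 in shCRX libraries and 0.0007 in controls). It was picked out after its values were seen.

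Downstream of SYK, 2 of 11 tested kinases, phosphatases and effectors were higher in HD-MB03 in both arms and 1 was lower. VAV2, a guanine nucleotide exchange factor, was higher by 0.90 and 1.86, and INPP5D, the phosphatase SHIP1, was higher by 1.34 and 4.43. PLCG2, the phospholipase that SYK activates in B cells, had 0.929 and 2.51 CPM in HD-MB03 shCRX libraries and 1.04 and 0.536 CPM in HD-MB03 controls, against 42.5, 2.89 and 25.6 CPM in D425 shCRX libraries and 69.2, 45.7 and 97.7 CPM in D425 controls. INPP5D rose in D425 shCRX libraries by 2.73 ± 0.53 as log2 fold change (edgeR adjusted p = 0.0168, background 1.61% called higher), with 37 counts in D425 shCRX libraries against 10 in D425 controls.

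The 10 haematopoietic markers summed to 3.72 to 4.30 CPM in HD-MB03 shCRX libraries and 3.75 to 5.20 CPM in HD-MB03 controls, against 11.6 to 36.2 CPM in D425 shCRX libraries and 16.5 to 28.9 CPM in D425 controls. IKZF1, a lymphoid transcription factor and 1 of 3 tested, was called lower in HD-MB03 in both arms and carried most of the D425 sums in all but the vector library. The other 9 markers summed to 3.57 to 3.58 CPM in HD-MB03 shCRX libraries and 3.75 to 4.16 CPM in HD-MB03 controls, against 2.40 to 4.60 CPM in D425 shCRX libraries and 3.31 to 15.5 CPM in D425 controls, so without IKZF1 the lines overlapped. PTPRC, the defining marker of leukocytes, had 0 counts in every HD-MB03 library, and MS4A1 and CD3E, those of B cells and T cells, had 0 counts in all 10 libraries. In bulk RNA, fewer cells of a type and less RNA per cell cannot be told apart.

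Among the relatives of HSPB1, 2 of 3 tested small heat shock genes were higher in HD-MB03 in both arms. HSPB8, a partner of HSPB1 in protein quality control, had 33.6 and 42.6 CPM in HD-MB03 shCRX libraries and 38 and 37.0 CPM in HD-MB03 controls, against 7.83 to 21.1 CPM in D425, and differed by 1.74 and 1.56 on the log2 scale. HSPB3 was called from few counts, with 61 and 7 in HD-MB03 shCRX libraries and controls and 1 and 7 in those of D425. CRYAB, alpha-B-crystallin, had a log2 difference of 0.86 in shCRX libraries (edgeR adjusted p = 0.255) and of 3.00 in controls (edgeR adjusted p = 0.0025).

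Of 20 tested heat shock factors and HSF1 target chaperones, none was higher or lower in HD-MB03 in both arms, with 3 called higher and 1 lower in shCRX libraries (background 15.9% higher and 16.9% lower) and 2 higher and 5 lower in controls (background 16.8% higher and 17.4% lower). Of 9 p38 and MAPKAP kinase genes, MAPKAPK2, the kinase that phosphorylates HSPB1, was higher in HD-MB03 by 0.89 and 1.20 and MAPKAPK5 by 0.51 and 0.80, and none was lower in both arms. HSF4 rose in D425 shCRX libraries by 1.80 ± 0.42 (edgeR adjusted p = 0.039), and no other gene of these lists passed in either shCRX comparison.

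Of 6 tested genes related to CNNM1, the CNNM relatives and the PTP4A phosphatases that bind CNNM proteins, none was higher or lower in HD-MB03 in both arms. PTP4A3 was lower in HD-MB03 in the shCRX libraries (-1.0) and higher in the controls (1.08), and within D425 it rose in the shCRX libraries by 1.06 ± 0.23 as log2 fold change (edgeR adjusted p = 0.0279, background 1.61% called higher). Of 9 tested magnesium transporters and channels, SLC41A1 was higher in HD-MB03 by 0.55 and 0.97 and MAGT1 was lower, with -0.64 and -1.15.

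Of the 20 nearest protein-coding genes by RefSeq order (2 on each side of each member, on chromosomes 10, 5, 6, 9 and 7), 15 were tested. SRRM3 was higher in HD-MB03 in both arms, by 2.51 and 3.19, and SSC4D was lower, with -3.75 and -3.66, and both lie beside HSPB1 with YWHAG and MDH2 in the same stretch passing in 1 arm at most. Over the 15 genes the median log2 difference was -0.06 in shCRX libraries and 0.51 in controls, with 1 called higher and 1 lower in shCRX libraries (background 15.9% higher and 16.9% lower) and 5 higher and 3 lower in controls (background 16.8% higher and 17.4% lower). HPS1, HPSE2, HUS1B and DIRAS2 were not tested, LOC124905366 was not analysed here, and none of the 15 passed either shCRX comparison.

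**Figure D5:**
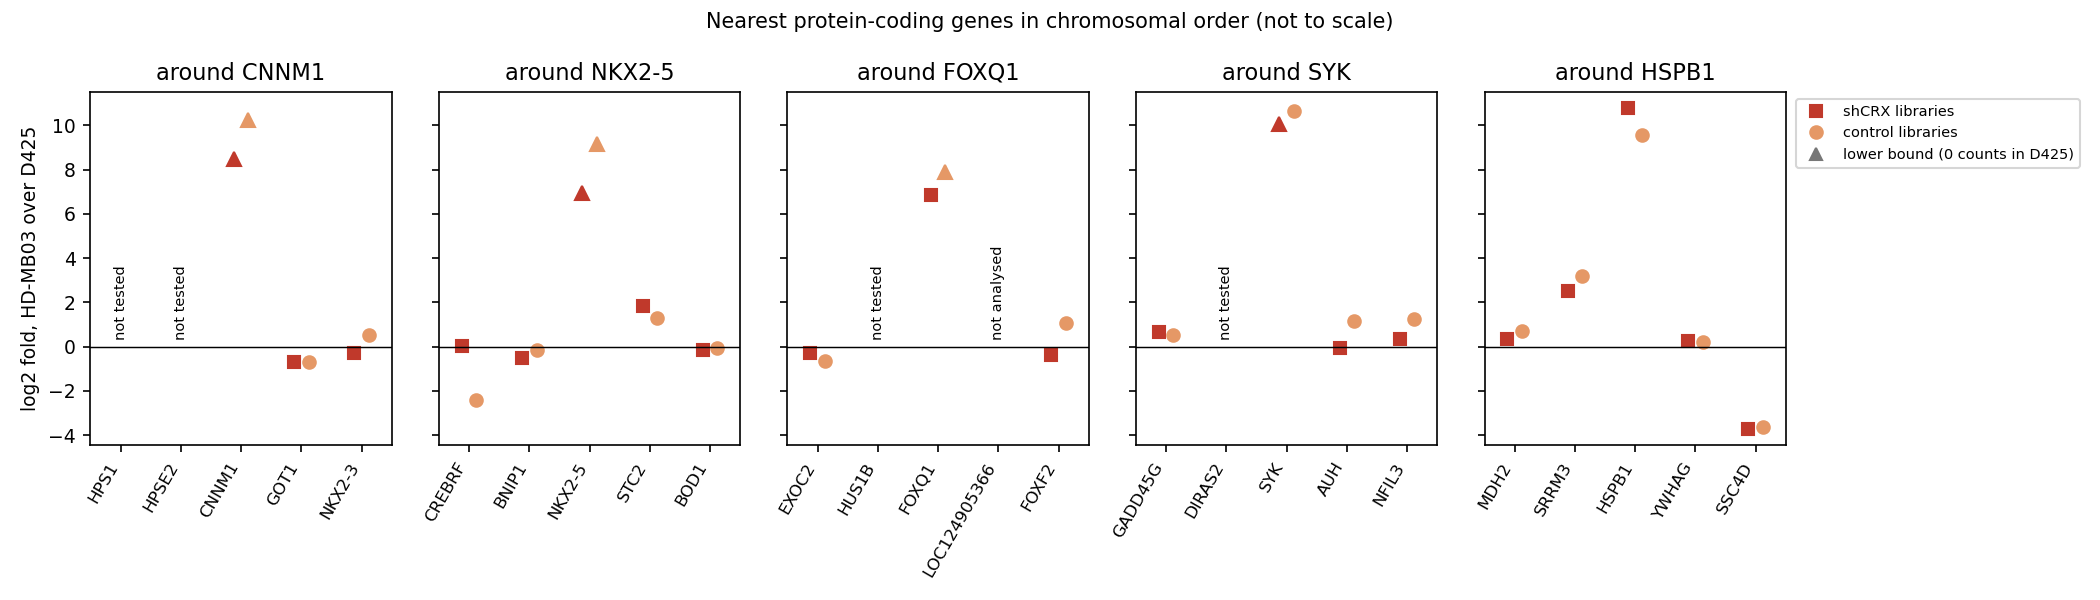
Log2 fold of HD-MB03 over D425 for each member and its nearest protein-coding genes, as squares for shCRX libraries and circles for controls, with triangles for lower bounds where D425 had 0 counts. Members lie between 6.84 and 10.78 and tested neighbours between -3.75 and 3.19.

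The genes most like each member across all 10 libraries were found by Pearson's r of log2 CPM, given as a description because all values of a line share its cells. The closest 3 were HFE, SLC44A3 and PARP12 for CNNM1 (r from 0.998 to 0.999), C11orf87, CABLES2 and PGAP4 for NKX2-5 (r from 0.997 to 0.9996) and AGPAT2, MLKL and IL22RA1 for FOXQ1 (r from 0.991 to 0.995). They were TMEM184A, TRIM25 and DNAJC15 for SYK (r from 0.998 to 0.999) and PCDHGC3, DIP2C and TRIM25 for HSPB1 (r from 0.991 to 0.997). Such values are common between genes that separate the lines, with 279 protein-coding genes over 0.95 for FOXQ1 and 385 for SYK. C11orf87 averaged only 1.04 CPM in HD-MB03 shCRX libraries and 1.58 CPM in HD-MB03 controls, the latter near the level of 3 counts in those libraries. CABLES2 and PCDHGC3 were not absent from D425, at 4.80 and 3.69 CPM in its shCRX libraries and 4.76 and 4.58 CPM in its controls. The members correlated with each other at 0.972 to 0.997, lowest between FOXQ1 and SYK and highest between CNNM1 and NKX2-5. SLC44A3 and HFE had 0 counts in D425, as CNNM1 did, at 25.8 and 5.22 CPM in HD-MB03 shCRX libraries and 31.0 and 7.12 CPM in HD-MB03 controls.

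Markers of the labelled tumour type were also compared between the lines. Both lines carry that label, so these markers cannot check which line is which. Of 8 tested Group 3 medulloblastoma markers, MYC, NRL and GABRA5 were higher in HD-MB03 in both arms and MAB21L2, with 2 counts in all HD-MB03 libraries together, was lower. NPR3, a listed marker that was not tested, had at most 1.61 CPM in any library. MYC had 3513 and 4113 CPM in HD-MB03 shCRX libraries and 5221 and 3943 CPM in HD-MB03 controls, against 967.9 to 1981 CPM in D425 shCRX libraries and 2031 to 2975 CPM in D425 controls. MYC, the oncogene often amplified in this subgroup, was thus read at high levels in both lines.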

How the data were processed

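Poly(A)-selected RNA of 10 libraries was sequenced. The deposited values were whole-number read counts per gene, 1 file per library, which the authors did not normalise. The tools bcl2fastq, HISAT2, HTSeq and DESeq2 and the build GRCh37 (hg19) are named per the submitters' processing notes, with versions and the strand setting not given in the sources used here, so reads of overlapping or antisense genes and pseudogene copies are uncertain. Of 57820 identifiers 51996 received a symbol, and the 5 summary entries, with 20.7% to 49.5% of the reads, entered neither library sizes nor tests. Counts were fitted in R 4.3.3 with edgeR 4.0.16 (TMM, filterByExpr, robust quasi-likelihood, 4 group means of line and arm, 6 residual degrees of freedom, two-sided tests, Benjamini-Hochberg adjustment over 16006 genes, threshold 0.05), which was tested on simulated data. DESeq2 1.42.0, other scalings, no filter, other controls, a replicate block and leaving out each library were alternatives, and GC and length offsets and thinning to equal depth were added after seeing the data. Correlations used log2 CPM with a prior count of 2. Exact Poisson intervals and floors cover counting error only, and 3 counts correspond to 0.166 to 1.53 CPM of a library's own total. The 5 genes and the gene lists were chosen with earlier results of these data known. Named besides them were CRX, the nearest protein-coding genes, the 3 most similar genes for each and, from each list, up to 4 genes called in the same direction in both arms and every gene called for shCRX, of which the text gives a selection. Reference annotation of another build gave symbols, GC content, gene order and promoters. The results of 2 genes of these lists are not reported here.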

Additional observations from a re-analysis of the deposited data

Results flagged for a closer look

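Among 155 tested genes (those of the lists, the neighbours, CRX and HSPB1), the shCRX values of 12 differed between the lines by the edgeR test of the difference itself (HD-MB03 minus D425, adjusted p under 0.05), or 7.74% against 4.16% of all tested genes. The number sets are confounded with the arms in opposite directions in the lines, so a shift between sets falls wholly on this difference. The lists were also chosen with earlier results of these data known, so the share of 7.74% is not independent of the choice. CRX differed by 2.14 on the log2 scale, since its values were 1.04 in HD-MB03 and -1.10 in D425. PTP4A3, a phosphatase that binds CNNM proteins, differed by -2.08 (-1.02 in HD-MB03 and 1.06 in D425), and INPP5D, a phosphatase downstream of SYK, by -3.1 (-0.37 in HD-MB03 and 2.73 in D425). FOXF2, the forkhead gene beside FOXQ1, differed by -1.45 (-0.76 in HD-MB03 and 0.69 in D425). Among marker genes the difference was 1.47 for IMPG2, 2.26 for SYP and -2.76 for PDGFRB. The difference was 1.86 for ARL15, 1.85 for EYS, 1.84 for HSF2, 1.44 for FOXN2 and 1.19 for HSPD1, which were named after their values were seen. None of the 5 HD-MB03-restricted genes was among them, and only HSPB1 had enough counts in D425 for the difference to be read. The low D425 controls of HSPB1 were part of the choice.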

How the results depend on the processing

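For HD-MB03 shCRX against controls, none of the values of the 5 genes changed sign under any alternative run, and only HSPB1 was called under any alternative, by DESeq2 and without the filter, with adjusted p from 0.0026 to 0.748 over its alternatives. CRX in D425 lost its call under 13 of 19 alternatives (log2 fold change -1.58 to -0.81), and the difference between the lines under 5 of 18. Counts of called genes moved far more than the members did, and the cause was not tested. For D425 shCRX against controls (476 called) DESeq2 called 986, no filter 1211, vector controls alone 8, parental controls alone 104 and thinning to equal depth 289, with 185 to 430 when 1 library was left out (185 without the vector library, 217 without parental replicate 1 and 243 without shCRX replicate 3). Library totals in place of TMM gave a split of 367 higher and 151 lower, against 257 and 219, with the median gene at 0.15 and not 0.019 on the log2 scale. For HD-MB03 shCRX against controls (241 called) DESeq2 called 806, no filter 790, GC and length offsets 155, vector alone 1 and parental alone 62, with 15 to 329 when 1 library was left out. That was 15 without HD-MB03 shCRX replicate 2, 82 without shCRX replicate 1, 31 without HD-MB03 parental and 146 without D425 shCRX replicate 3. For the difference between the lines (666 called) DESeq2 called 1370, no filter 1579, offsets 357, vector alone 3 and parental alone 227, with 177 to 841 when 1 library was left out (177 without HD-MB03 parental, 186 and 372 without HD-MB03 shCRX replicates 1 and 2, 376 without D425 shCRX replicate 3 and 418 without D425 parental replicate 1). For HD-MB03 against D425, leaving out 1 library gave 3053 (without HD-MB03 shCRX replicate 1) to 5444 in shCRX libraries (5247 called) and 2804 (without HD-MB03 parental) to 6040 in controls (5486 called), where vector alone gave 1409 and parental alone 3029. Same-numbered libraries had only the number in common (correlations of deviations 0.0137 and 0.00897). With a replicate block 42 genes were called for D425 shCRX against parental controls and 2490 for HD-MB03 against D425 shCRX libraries, in both cases from fewer libraries. Depth limits the HD-MB03 controls most, where 3 counts over the group correspond to 0.792 CPM and FOXQ1 rested on 65 counts.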
